A study of Mus musculus with 10 samples.

Results

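Trp63, Klf4, Klf5, Gata3, Grhl1, Grhl3, Ovol1, Prdm1 and Tfap2a encode 9 transcription factors of the epidermis, and all 9 were taken by symbol from the 9779 genes with values for every library. RNA was measured in 10 libraries of ear skin from C57BL/6 mice aged 6 to 8 weeks. Mice of the benzamil group (n = 4) were given imiquimod on the skin for 6 days, which activates Toll-like receptors and inflames mouse skin in a psoriasis-like way, and with it benzamil, a relative of amiloride and blocker of epithelial sodium channels. The DMSO group (n = 4) received imiquimod with the solvent DMSO for 6 days, and the untreated group (n = 2) received neither. Imiquimod was therefore shared by the benzamil and DMSO groups, and against untreated skin the agent and its solvent cannot be told apart. The sample labels say ear skin for all libraries but the design text names the back for untreated controls, so body site and treatment cannot be told apart either. No label says that replicates came from separate animals, and p-values therefore cover only the spread of these libraries, which may be technical.

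The epidermis renews itself from a basal layer whose keratinocytes withdraw from the cell cycle, move outward and build the cornified barrier. p63, the product of Trp63, maintains the basal state and is required for stratified epithelia to form. Klf5 is found in proliferating basal cells, and Klf4 acts in the upper layers, where it is required for the barrier. Gata3, the grainyhead-like factors Grhl1 and Grhl3, the zinc-finger repressors Ovol1 and Prdm1 (Blimp-1) and the AP-2 factor Tfap2a each act in commitment, differentiation or barrier formation of mouse epidermis. Several of them also act outside keratinocytes, Gata3 in T cells, innate lymphoid cells and the inner root sheath of the hair follicle, and Prdm1 in plasma cells and T cells.

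Proximal promoters are shown for 3 of the factors, Gata3 and Grhl3 because their levels changed between groups and Klf4 because it stayed without a call at a similar depth to Gata3. Each window holds 250 bases before and 50 after a transcription start, 5′ to 3′ on the gene's strand, from RefSeq on GRCm38.p6. The windows are chr2:9878551-9878850, minus strand, for Gata3, chr4:135573583-135573882, minus strand, for Grhl3, and chr4:55532426-55532725, minus strand, for Klf4. Capitals mark the CACCC box (CACCC) and the GC box (GGGCGG), letters bound by Krüppel-like factors and their Sp relatives, on either strand, and would mark the GATA box (GATAA), which had 0 matches in these 3 windows. Only the letters GATAA were searched, so other forms, such as the gatag near the end of the Gata3 window, were not counted. Overlapping matches run together in capitals.
Gata3: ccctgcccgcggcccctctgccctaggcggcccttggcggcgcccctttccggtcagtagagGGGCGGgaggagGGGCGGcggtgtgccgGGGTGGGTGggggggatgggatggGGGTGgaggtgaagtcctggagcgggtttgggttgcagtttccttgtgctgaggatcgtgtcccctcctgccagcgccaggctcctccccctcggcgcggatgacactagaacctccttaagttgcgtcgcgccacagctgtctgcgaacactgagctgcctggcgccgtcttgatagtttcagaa
Grhl3: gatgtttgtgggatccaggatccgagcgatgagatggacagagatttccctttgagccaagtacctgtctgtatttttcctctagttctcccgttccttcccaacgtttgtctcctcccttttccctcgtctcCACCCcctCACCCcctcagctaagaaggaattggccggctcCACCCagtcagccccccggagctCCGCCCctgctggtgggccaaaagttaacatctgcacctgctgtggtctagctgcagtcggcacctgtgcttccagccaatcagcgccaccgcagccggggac
Klf4: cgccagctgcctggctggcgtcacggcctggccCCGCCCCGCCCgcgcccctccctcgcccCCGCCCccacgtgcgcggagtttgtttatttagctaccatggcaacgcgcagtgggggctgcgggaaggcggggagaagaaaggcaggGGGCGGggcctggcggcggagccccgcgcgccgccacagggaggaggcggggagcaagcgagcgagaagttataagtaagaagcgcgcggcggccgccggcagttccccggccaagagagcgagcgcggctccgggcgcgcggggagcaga

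The Gata3 window held 3 CACCC boxes and 2 GC boxes, the Grhl3 window 3 CACCC boxes and 1 GC box, and the Klf4 window 0 CACCC boxes and 4 GC boxes. Across all 32851 RefSeq windows of 300 bases, 57.5% held a CACCC box, 35.7% a GC box and 25.4% a GATA box. The AP-2 palindrome GCCNNNGGC had 3 matches in the Gata3 window, 1 in the Klf4 window and 0 in the Grhl3 window, and 16.6% of all windows held at least 1. The grainyhead-like element AACCNGTT, present in 2.09% of all windows, and the TATA box TATAAA, present in 13.6%, had 0 matches in these 3 windows. The G and C content was 67.3% for Gata3, 58.3% for Grhl3 and 74.3% for Klf4, against a median of 52.7% over all windows. RefSeq windows matched 6 of the 9 factors by symbol, and those of Grhl1, Prdm1 and Tfap2a are not printed. A match of letters describes the sequence and is no evidence of binding.

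Depth was low and uneven. The joined totals were 138440 to 375455 reads in the benzamil group, 259262 to 935714 in the DMSO group, and 74614 and 71144 in the untreated libraries. CPM is a gene's reads scaled by its library's total, and 1 read amounted to 1.07 CPM in the deepest library (DMSO 1) and 14.1 CPM in the shallowest (untreated 2), and 3 reads, the limit that a count of 0 allows, ranged from 3.21 to 42.2 CPM. Ribosomal RNA genes took 31.0% to 45.7% of the reads in the benzamil group, 22.1% to 28.8% in the DMSO group, and 34.2% and 38.6% in untreated skin, so that CPM of other genes read low in the benzamil and untreated groups beside the DMSO group. The test scaled libraries by TMM, which sets the bulk of genes equal, and scaling by total reads alone instead lowered the median log2 fold change of all genes in benzamil over DMSO to -0.26, against -0.01 with TMM. Keratinocyte markers (12 of 12 in the tables) summed to 30270 to 43502 CPM in the benzamil group, 37568 to 47918 CPM in the DMSO group, and 19085 and 19425 CPM in untreated skin, where fibroblast and matrix markers (12 of 13) summed to 8181 and 19500 CPM, against 704 to 2384 CPM with benzamil and 1021 to 1392 CPM with DMSO. Each change is given as a log2 fold change ± its standard error. It was tested by the quasi-likelihood method of edgeR, p-values were adjusted over 5245 genes, and a gene was called at an adjusted p under 0.05. All 9 factors passed the filter on low reads, Grhl3 only through its DMSO libraries, where it was highest.

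Gata3 was higher with benzamil than with DMSO and lower with DMSO than in untreated skin, the only factor called in both comparisons. Klf5 showed the opposite order, with a call only for DMSO over untreated. Grhl3 and Ovol1 were also higher with DMSO than in untreated skin, on few untreated reads. With edgeR and TMM no call was made for Trp63, Klf4, Grhl1, Prdm1 or Tfap2a in any comparison. In benzamil over DMSO 1 of the 9 factors was called higher and 0 lower, where 22.0% of all tested genes were called (9.91% higher and 12.1% lower). In DMSO over untreated 3 were called higher and 1 lower, where 18.4% of all tested genes were called (9.93% higher and 8.45% lower). In benzamil over untreated 0 of 9 were called, where 4.0% of all tested genes were called (2.44% higher and 1.56% lower). Among the 9 factors Prdm1 alone had an unadjusted edgeR p under 0.05 there, at 0.0337, as had 992 of the 5245 tested genes. DESeq2 called 0 of the 9 in that comparison as well. With 9 genes these shares are descriptions. The median log2 fold change of the 9 was 0.13 in benzamil over DMSO, 0.70 in DMSO over untreated and 0.65 in benzamil over untreated, beside -0.01, 0.18 and 0.17 over all tested genes. The 12 keratinocyte markers had medians of 0.10, 1.21 and 0.52 in that order, with 7 higher and 1 lower in DMSO over untreated. The part of keratinocyte content in the changes of the 9 was not tested. The comparisons share libraries, so their values stand side by side and are not independent of each other.

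**Figure D1:**
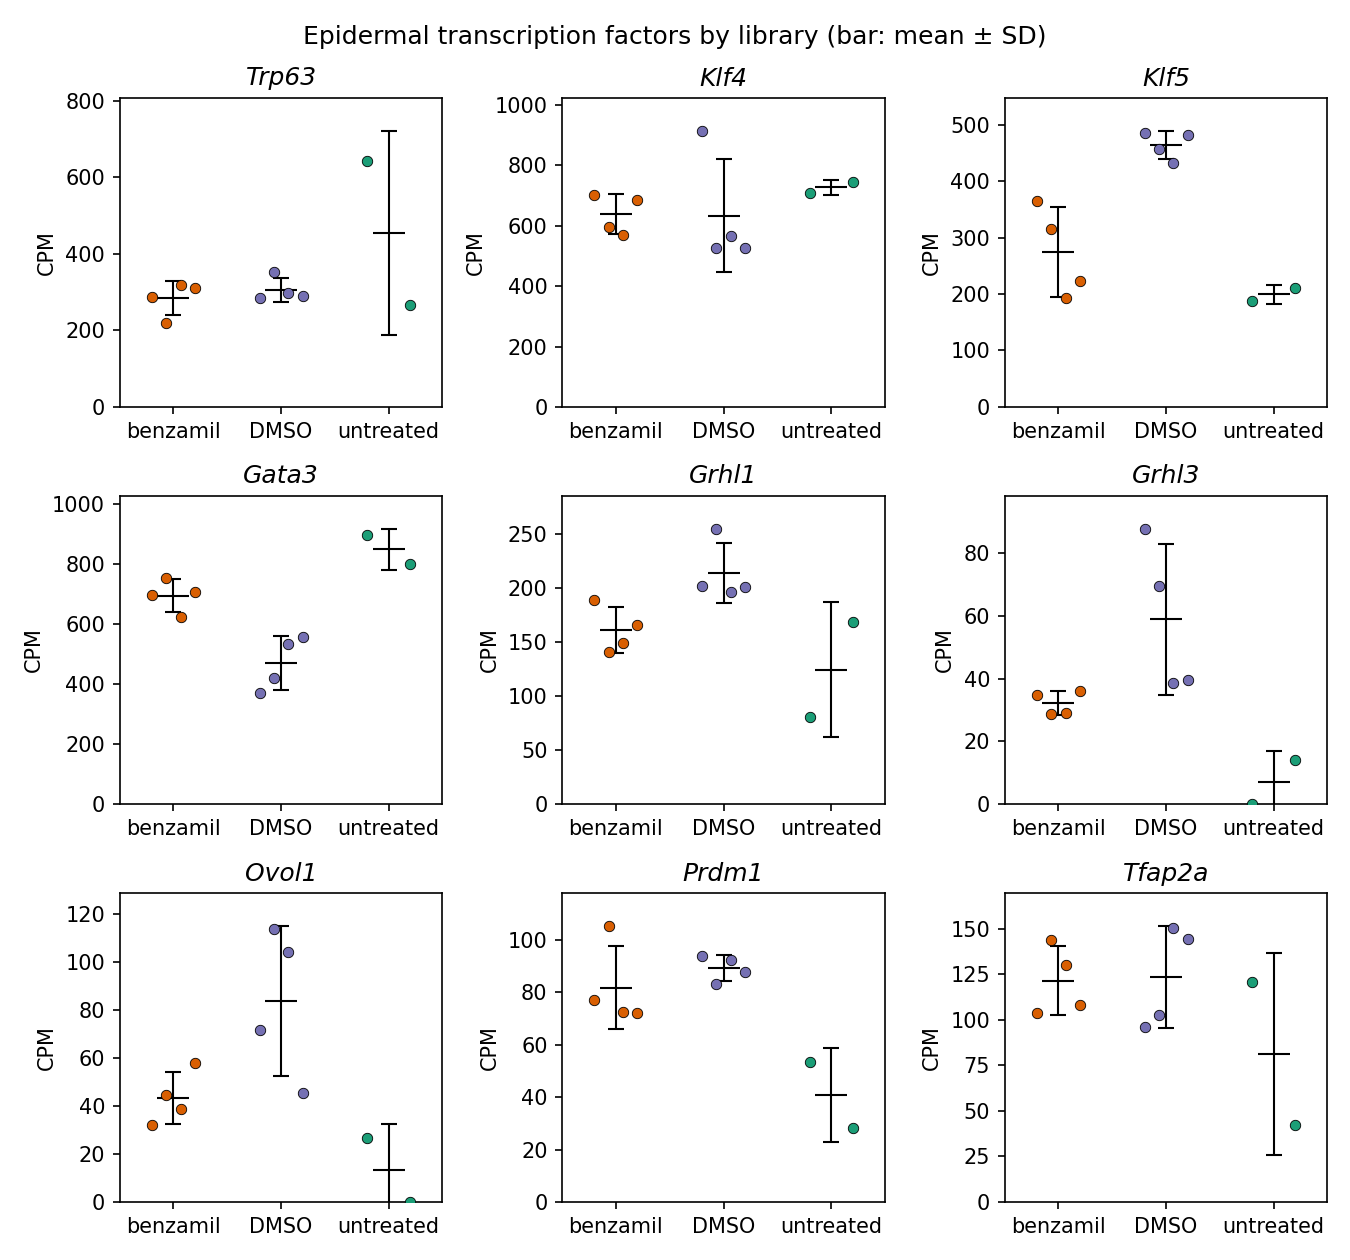
CPM of the 9 factors in each library (points) with the mean and SD of the group (bars), for the benzamil, DMSO and untreated groups, each panel with its own axis from 0. The 4 benzamil points of Gata3 lie between 622 and 753 CPM, above the DMSO points at 372 to 558 CPM, and the 4 DMSO points of Klf5 lie between 432 and 485 CPM, above all others.

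Gata3 (chromosome 2, 9857078 to 9890034, minus strand, mm10) encodes a zinc-finger factor that binds GATA motifs and is needed for barrier lipid synthesis in mouse epidermis. Its level was 698, 753, 622 and 708 CPM in benzamil libraries 1 to 4, 372, 421, 532 and 558 CPM in DMSO libraries 1 to 4, and 898 and 801 CPM in untreated libraries 1 and 2. The 3 groups did not overlap on this scale, and the order was untreated, benzamil, DMSO from high to low. Group means were 695 ± 54.3 CPM with benzamil (SD, n = 4), 471 ± 88.8 CPM with DMSO (SD, n = 4) and 849.6 ± 68.4 CPM in untreated skin (SD, n = 2). On the TMM scale the test used, the means were 805 ± 37.4 with benzamil, 457 ± 85.5 with DMSO and 874 ± 39.9 in untreated skin, and benzamil and untreated libraries then overlapped.

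In benzamil over DMSO, Gata3 changed by 0.83 ± 0.19 (edgeR adjusted p = 0.00253), a fold of 1.77 with a 95% interval of 1.36 to 2.31. That call was kept under each of 19 other settings, with a log2 fold change of 0.55 to 0.92 and an adjusted p of 0.00031 to 0.0473. In DMSO over untreated it changed by -0.94 ± 0.24 (edgeR adjusted p = 0.00785). The call rested on having both untreated libraries, with -0.81 (adjusted p = 0.107) without untreated library 1 and -0.89 (adjusted p = 0.0538) without untreated library 2, and it was also lost with no filter on low reads (-0.72, adjusted p = 0.0602). In benzamil over untreated the change was -0.12 ± 0.24 (edgeR adjusted p = 0.836), and its interval of -0.62 to 0.38 leaves room for a difference in either direction. In the authors' deposited table of benzamil over DMSO, Gata3 had 0.77 ± 0.18 (DESeq2 adjusted p = 0.000423) and ranked 196 of 10653 genes by p-value. In whole skin, fewer cells of a type and less RNA per cell cannot be told apart.

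Cell types that also use Gata3 were read from their markers. Of 20 T cell and innate lymphoid markers only Trbc2, Thy1, Il7r, Rora and Areg were in the joined tables, and no Cd3 gene was among them. Their summed level was 1047 to 1369 CPM with benzamil, 815 to 999 CPM with DMSO, and 1112 and 1335 CPM in untreated skin, so that the benzamil sums, like Gata3, lay above the DMSO sums. Most of that sum was Rora, a nuclear receptor that keratinocytes also express, with 1257, 1140, 1081 and 917 CPM in the benzamil libraries, 746, 673, 887 and 861 CPM in the DMSO libraries, and 885 and 1124 CPM in the untreated libraries. Rora rose in benzamil over DMSO (0.74 ± 0.19, edgeR adjusted p = 0.00777), whereas the surface protein gene Thy1 gave 0.15 ± 0.24 (edgeR adjusted p = 0.697) and the cytokine receptor gene Il7r 0.65 ± 0.70 (edgeR adjusted p = 0.546) on 11 benzamil reads and 15 DMSO reads. In DMSO over untreated, Thy1 (-1.02 ± 0.36, edgeR adjusted p = 0.0486) and Il7r (-2.96 ± 0.83, edgeR adjusted p = 0.0148) were called lower. So were 7 of 9 tested fibroblast and matrix markers, and which cells carried the fall of Thy1 was not tested. Il7r had only 5 and 4 reads in the untreated libraries. Rora was not called there (-0.43 ± 0.25, edgeR adjusted p = 0.231), and Areg had 0 untreated reads. Of 19 hair follicle and inner root sheath markers 4 were in the tables, none of them an inner root sheath keratin, and they summed to 469 to 760 CPM with benzamil, 451 to 626 CPM with DMSO, and 255 and 281 CPM in untreated skin.

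Skeletal muscle markers (11 of 12 in the tables) followed the Gata3 order of untreated, benzamil and DMSO in their list medians. Of the 11 tested, 8 were higher and 0 lower in benzamil over DMSO (median 1.36), and 0 were higher and 9 lower in DMSO over untreated (median -2.64), with the myosin light chain gene Myl1 at 2.25 ± 0.39 (edgeR adjusted p = 0.000199) and -3.68 ± 0.48 (edgeR adjusted p = 7.5e-06). Muscle marker sums were 806 to 1713 CPM with benzamil, 354 to 1497 CPM with DMSO, and 3275 and 3940 CPM in untreated skin. The benzamil and DMSO sums overlapped, unlike the Gata3 levels. Fibroblast and matrix markers had the same order of list medians. Of the 9 tested, 2 were higher and 1 lower in benzamil over DMSO (median 0.43). In DMSO over untreated 0 were higher and 7 lower (median -2.62). Shares over all tested genes were 9.91% higher and 12.1% lower in benzamil over DMSO, and 9.93% and 8.45% in DMSO over untreated. Sebaceous gland markers (13 of 15) summed to 5021 to 8885 CPM with benzamil, 2393 to 4285 CPM with DMSO, and 6283 and 9556 CPM in untreated skin. Most of that sum was Scd1, a fatty acid desaturase gene, at 3699 ± 1108 CPM with benzamil (SD, n = 4), 1970.0 ± 618 CPM with DMSO (SD, n = 4) and 6172 ± 1772 CPM in untreated skin (SD, n = 2). Of the 12 sebaceous markers tested, 7 were higher and 0 lower in benzamil over DMSO (median 1.02), but in DMSO over untreated only Scd1 and the fatty acid elongase gene Elovl6 were lower and the triglyceride synthesis gene Dgat2 was higher, 9 had no call, and the median was -0.14. The part of these cell types in the Gata3 result was not tested.

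**Figure D2:**
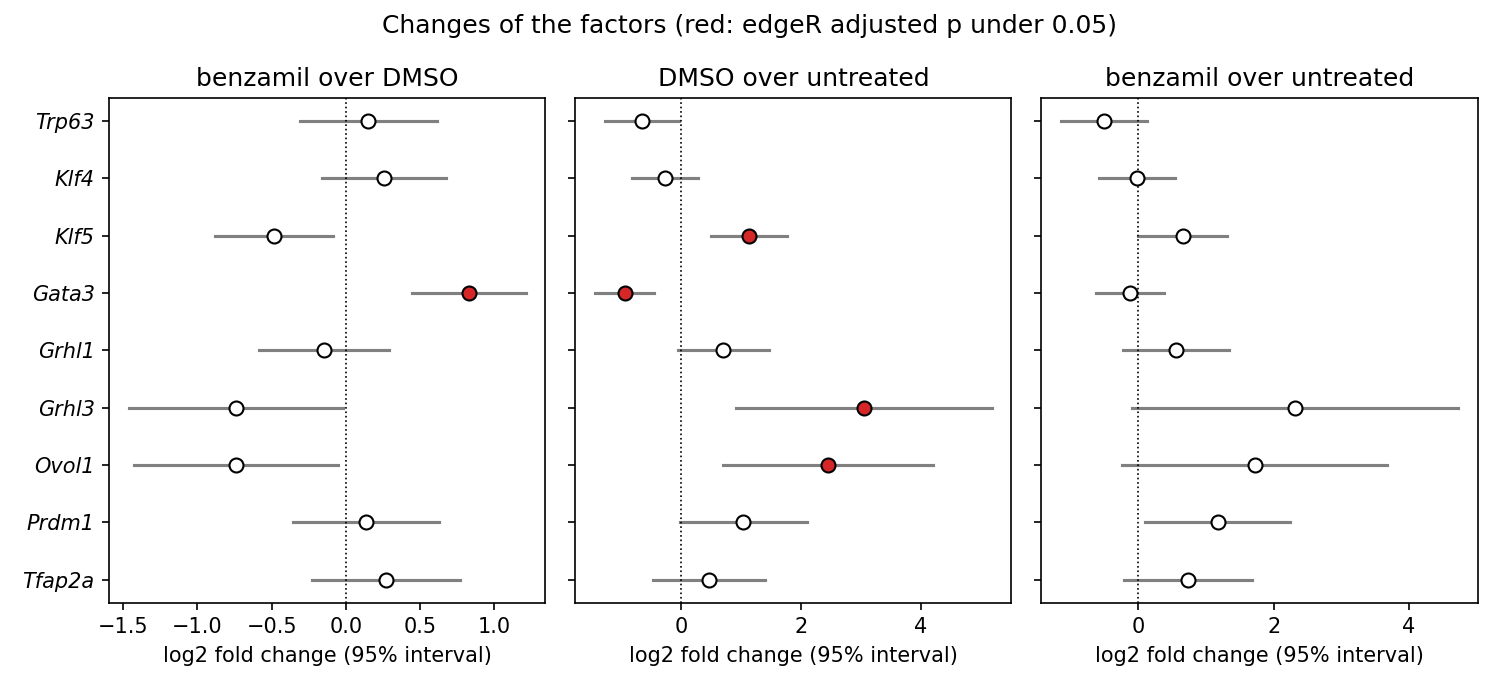
Log2 fold change of each factor (points) with its 95% interval (lines) in benzamil over DMSO, DMSO over untreated and benzamil over untreated, red where the edgeR adjusted p was under 0.05; the axes differ between panels. Gata3 is red at 0.83 and at -0.94 in the first and second panels, Klf5, Grhl3 and Ovol1 are red at 1.14, 3.05 and 2.46 in the second, and no point is red in the third.

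The Krüppel-like factors Klf4 and Klf5 differed from each other. Klf5 (chromosome 14, 99298691 to 99315036, plus strand) stood at 365, 316, 193 and 224 CPM in the benzamil libraries, 485, 457, 432 and 482 CPM in the DMSO libraries, and 188 and 211 CPM in the untreated libraries. The DMSO libraries were the highest and the closest to each other, at 464 ± 24.7 CPM (SD, n = 4), beside 274 ± 79.8 CPM with benzamil (SD, n = 4) and 199 ± 16.4 CPM in untreated skin (SD, n = 2). In CPM, benzamil libraries 3 and 4 lay near the untreated level and libraries 1 and 2 between the other groups. On the TMM scale, benzamil libraries 3 and 4 were at 267 and 246, above the untreated libraries at 188 and 222. Benzamil library 1, at 416, then lay within the DMSO range of 412 to 472. Klf5 rose in DMSO over untreated (1.14 ± 0.31, edgeR adjusted p = 0.0119), a fold of 2.20 with a 95% interval of 1.41 to 3.42, and the call was lost without untreated library 1 (1.11, adjusted p = 0.0957) and with every library thinned to 71144 reads (0.88, adjusted p = 0.0548). In benzamil over DMSO it had -0.49 ± 0.19 (edgeR adjusted p = 0.071) and was not called. It was called there in 4 of 19 other settings, with -0.65 (adjusted p = 0.0372) without benzamil library 1, -0.54 (adjusted p = 0.0439) with the size factors of DESeq2, -0.55 (adjusted p = 0.0441) with DESeq2's own test and -0.75 (adjusted p = 0.0115) with total reads alone, where the median of all genes was -0.26. Benzamil over untreated gave 0.65 ± 0.32 (edgeR adjusted p = 0.266).

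Klf4 (chromosome 4, 55527143 to 55532466, minus strand), whose loss abolishes the skin barrier in mice, was at 703, 597, 569 and 686 CPM with benzamil, 914, 526, 567 and 527 CPM with DMSO, and 710.3 and 745 CPM in untreated skin. DMSO library 1, the deepest library, stood above all the others and the remaining DMSO libraries below all others. The means were 639 ± 65.8 CPM with benzamil (SD, n = 4), 634 ± 188 CPM with DMSO (SD, n = 4) and 728 ± 24.5 CPM in untreated skin (SD, n = 2). Klf4 had 0.26 ± 0.20 in benzamil over DMSO (edgeR adjusted p = 0.381), -0.27 ± 0.27 in DMSO over untreated (edgeR adjusted p = 0.504) and -0.02 ± 0.27 in benzamil over untreated (edgeR adjusted p = 0.978). Without DMSO library 1 the first of these was 0.50 (adjusted p = 0.0898).

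A ratio of reads within a library does not depend on how libraries are scaled. Gata3 over Klf5 was 1.91, 2.38, 3.23 and 3.16 in the benzamil libraries, 0.767, 0.921, 1.23 and 1.16 in the DMSO libraries, and 4.79 and 3.80 in the untreated libraries, and the 3 groups did not overlap. Klf4 over Klf5 was 1.93, 1.89, 2.95 and 3.07 with benzamil, 1.88, 1.15, 1.31 and 1.09 with DMSO, and 3.79 and 3.53 in untreated skin, with DMSO library 1 just below the lowest benzamil library. These pairs were chosen after their values were seen and carry no test. A ratio shows unequal change of its genes and does not say which of them moved.

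**Figure D3:**
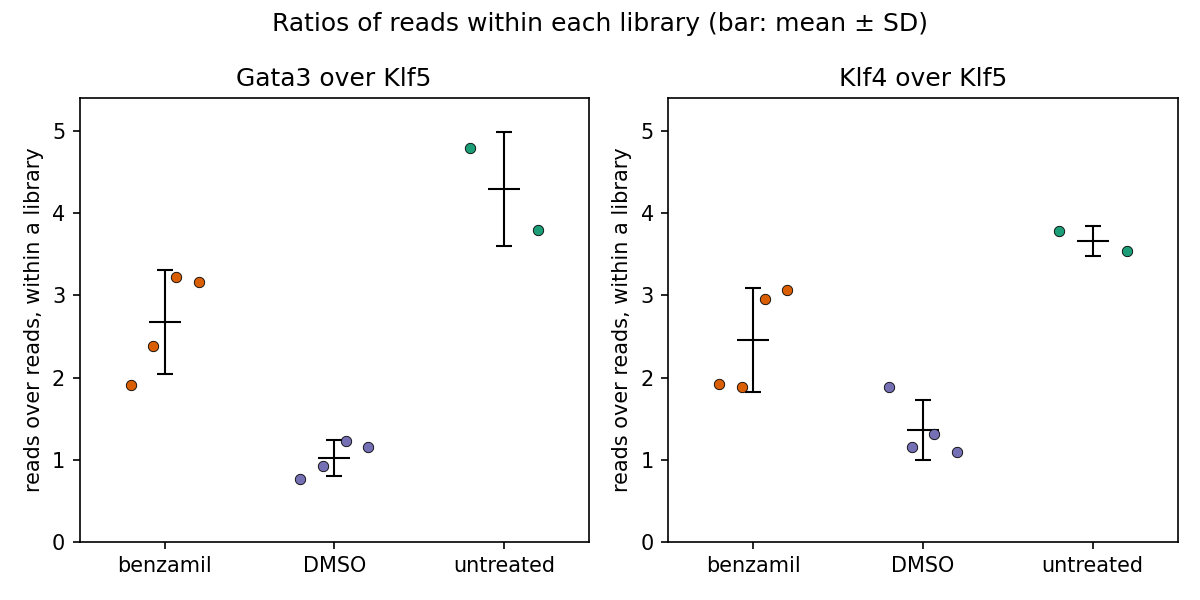
Reads of Gata3 over reads of Klf5 (left) and of Klf4 over Klf5 (right) within each library (points), with the mean and SD of the group (bars), for the benzamil, DMSO and untreated groups. Gata3 over Klf5 is 1.91 to 3.23 with benzamil, 0.767 to 1.23 with DMSO, and 4.79 and 3.80 in untreated skin.

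The grainyhead-like factors Grhl1 and Grhl3 bind the same element, and Grhl3 is required for barrier formation and wound closure in mice. Grhl3 (chromosome 4, 135541888 to 135573630, minus strand) was at 34.6, 28.7, 28.9 and 36.1 CPM with benzamil (13, 9, 6 and 5 reads), 87.6, 69.3, 38.6 and 39.7 CPM with DMSO (82, 25, 10 and 14 reads), and 0 and 14.1 CPM in untreated skin (0 and 1 read). DMSO libraries 1 and 2 were high, and DMSO libraries 3 and 4 lay close to the benzamil libraries without overlapping them, although on the TMM scale the groups overlapped. In DMSO over untreated Grhl3 changed by 3.05 ± 1.04 (edgeR adjusted p = 0.042), having entered the test only through its DMSO libraries. Summed over groups, 131 DMSO reads against 1 untreated read gave a ratio of 10.0 (95% counting interval 1.76 to 398). The call held in 11 of 18 other settings and was lost, among others, without DMSO library 1 (adjusted p = 0.0879), DMSO library 2 (0.0592), untreated library 1 (0.228) or untreated library 2 (0.0528), and in the authors' deposited table, coded as untreated over DMSO, it had -1.94 ± 0.76 (DESeq2 adjusted p = 0.166). Benzamil over DMSO gave -0.74 ± 0.35 (edgeR adjusted p = 0.13). Benzamil over untreated gave 33 reads against 1, which is 4.65-fold (counting interval 0.778 to 189, edgeR adjusted p = 0.287).

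Grhl1 (chromosome 12, 24572283 to 24617391, plus strand), which regulates desmosomal cadherins, was read more deeply, at 189, 140.4, 149.5 and 166 CPM with benzamil, 202, 255, 197 and 201 CPM with DMSO, and 80.4 and 169 CPM in untreated skin. All DMSO libraries lay above all benzamil libraries in CPM, but the groups overlapped on the TMM scale. The changes were -0.15 ± 0.21 in benzamil over DMSO (edgeR adjusted p = 0.664), 0.70 ± 0.37 in DMSO over untreated (edgeR adjusted p = 0.186) and 0.55 ± 0.38 in benzamil over untreated (edgeR adjusted p = 0.439). Grhl2, the remaining grainyhead-like gene, named beside its family although not called, gave 0.64 in benzamil over DMSO (edgeR adjusted p = 0.229) and -1.19 in DMSO over untreated (edgeR adjusted p = 0.184).

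Ovol1 and Prdm1 encode zinc-finger repressors that restrain growth in differentiating cells. Ovol1 (chromosome 19, 5549136 to 5560646, minus strand) was at 32.0, 44.7, 38.6 and 57.8 CPM with benzamil, 71.6, 114, 104 and 45.3 CPM with DMSO, and 26.8 and 0 CPM in untreated skin. The benzamil and DMSO groups overlapped through DMSO library 4. In DMSO over untreated Ovol1 changed by 2.46 ± 0.86 (edgeR adjusted p = 0.0456), with 151 DMSO reads against 2 untreated reads, which is 5.77-fold (counting interval 1.57 to 48.0). This call held in 7 of 18 other settings and was lost, among others, without benzamil library 2 (adjusted p = 0.0517), benzamil library 3 (0.0527), DMSO library 1 (0.0501), DMSO library 2 (0.0758), DMSO library 3 (0.0584), untreated library 1 (0.0528) or untreated library 2 (0.215). In the authors' deposited table, coded as untreated over DMSO, Ovol1 had -1.88 ± 0.70 (DESeq2 adjusted p = 0.114). Benzamil over DMSO gave -0.74 ± 0.33 (edgeR adjusted p = 0.113), and -0.93 (adjusted p = 0.0455) without DMSO library 4. Benzamil over untreated gave 42 reads against 2, which is 2.96-fold (counting interval 0.770 to 25.2, edgeR adjusted p = 0.331). A transcribed pseudogene on the opposite strand, Gm31166, overlaps the last 2000 bases of Ovol1 and is in neither table, and the strand setting of the counting is not given in the sources used here.

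Prdm1 (chromosome 10, 44437177 to 44528501, minus strand), which encodes Blimp-1, was at 77.2, 105, 72.4 and 72.2 CPM with benzamil, 94.0, 83.1, 92.6 and 87.8 CPM with DMSO, and 53.6 and 28.1 CPM in untreated skin. The untreated libraries, with 6 reads in all, lay below every treated library. Prdm1 had 0.13 ± 0.24 in benzamil over DMSO (edgeR adjusted p = 0.729) and 1.04 ± 0.52 in DMSO over untreated (edgeR adjusted p = 0.161). The latter was called in 1 of 18 other settings. Benzamil over untreated gave 1.17 ± 0.52 (edgeR adjusted p = 0.216). Of 10 B and plasma cell markers only Xbp1 and Sdc1, which keratinocytes also express, were in the tables. They summed to 188 to 227 CPM with benzamil, 288 to 459 CPM with DMSO, and 134 and 169 CPM in untreated skin, and their part in the Prdm1 values was not tested.

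Trp63 (chromosome 16, 25683763 to 25892102, plus strand) was at 288, 220.2, 318 and 311 CPM with benzamil, 285, 352, 297 and 289 CPM with DMSO, and 643 and 267 CPM in untreated skin. The treated groups overlapped, and untreated library 1 stood apart from all others. Trp63 had 0.15 ± 0.22 in benzamil over DMSO (edgeR adjusted p = 0.67), with a 95% interval of -0.31 to 0.61. DMSO over untreated gave -0.66 ± 0.30 (edgeR adjusted p = 0.125), which was 0.16 (adjusted p = 0.816) without untreated library 1 and -1.02 (adjusted p = 0.0422) without untreated library 2. Benzamil over untreated gave -0.51 ± 0.31 (edgeR adjusted p = 0.382), and 0.31 (adjusted p = 0.666) without untreated library 1.

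Tfap2a (chromosome 13, 40715302 to 40738376, minus strand), an AP-2 factor of the basal epidermis, was at 104, 144, 130.2 and 108 CPM with benzamil, 96.2, 103, 150.4 and 145 CPM with DMSO, and 121 and 42.2 CPM in untreated skin. All groups overlapped. Its changes were 0.27 ± 0.24 in benzamil over DMSO (edgeR adjusted p = 0.449), 0.47 ± 0.46 in DMSO over untreated (edgeR adjusted p = 0.505) and 0.74 ± 0.46 in benzamil over untreated (edgeR adjusted p = 0.393). The 95% interval of the first was -0.23 to 0.77 and includes changes in either direction.

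**Figure D4:**
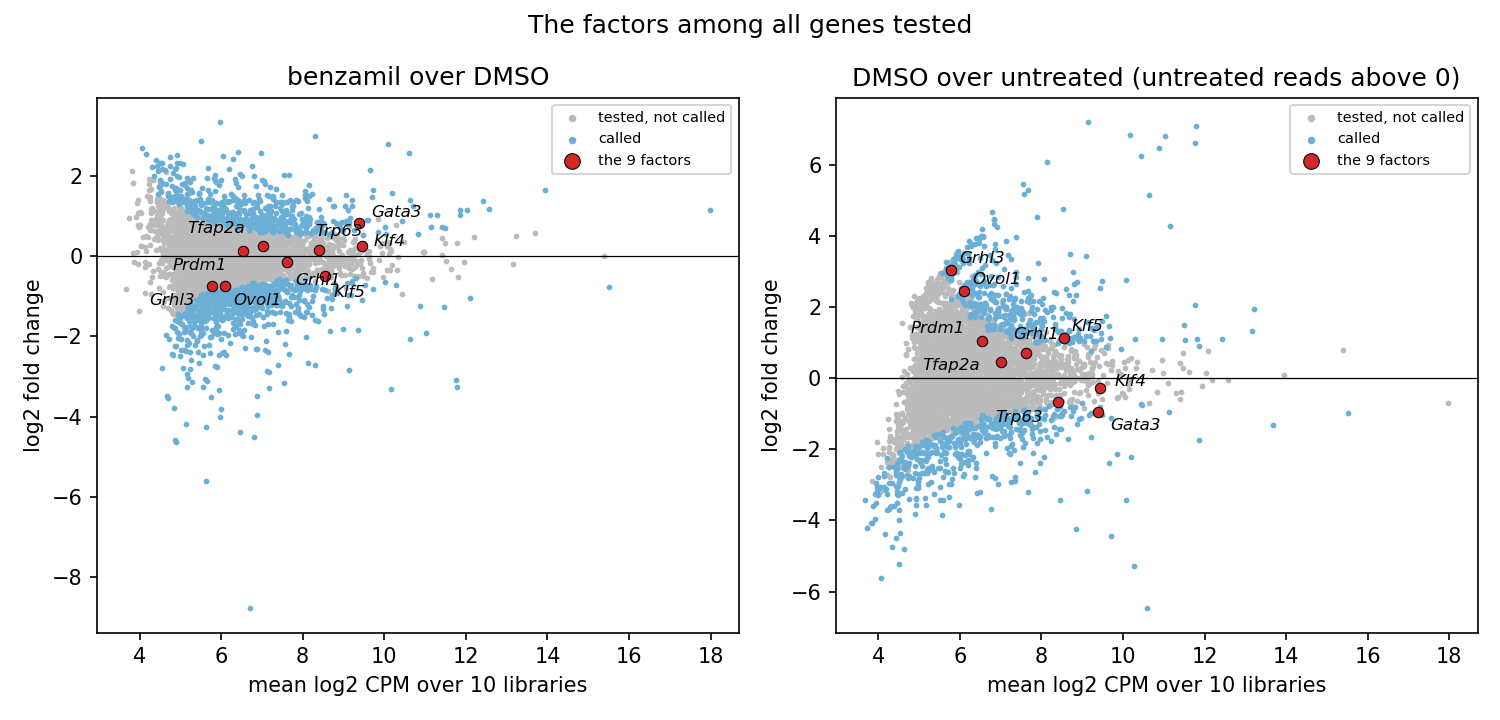
Log2 fold change against mean log2 CPM over the 10 libraries for the tested genes, grey where not called and blue where called, with the 9 factors in red, for benzamil over DMSO (5245 genes) and DMSO over untreated (without 191 genes that had 0 untreated reads, whose fitted fold is no bound). Gata3 lies among the called genes at 0.83 on the left and -0.94 on the right, and Grhl3 and Ovol1 lie at the low-level end of the factors.

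Counted by libraries that did not overlap in CPM, Gata3 was higher with benzamil than with DMSO (5.95% of all tested genes were), and Klf5, Grhl1 and Grhl3 were lower (20.6% were). On the TMM scale Gata3 alone was higher (11.1% of all tested genes were) and 0 factors were lower (13.4% were). Between DMSO and untreated libraries, 5 factors were higher, Klf5, Grhl1, Grhl3, Ovol1 and Prdm1 (32.0% of all tested genes were), and Gata3 was lower (17.0% were), and the same 6 factors stood apart on the TMM scale (29.5% of genes higher and 18.6% lower). Between benzamil and untreated libraries, Grhl3, Ovol1 and Prdm1 were higher (15.7% were), and Klf4 and Gata3 were lower (16.0% were). On the TMM scale 4 were higher there, Klf5, Grhl3, Ovol1 and Prdm1 (19.5% of all tested genes were), and 0 were lower (12.9% were).

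Family relatives of the 9 were measured beside them. Of 32 listed relatives 13 were tested. In benzamil over DMSO 1 was higher and 3 lower, where 9.91% and 12.1% of all tested genes were. In DMSO over untreated 2 were higher and 1 lower, where 9.93% and 8.45% were. In benzamil over untreated edgeR called 0, where 4.0% of all tested genes were called. Tfap2b, another AP-2 gene, was at 82.6, 79.8, 91.7 and 130.02 CPM with benzamil, 44.9, 61.0, 69.4 and 65.2 CPM with DMSO, and 228 and 239 CPM in untreated skin, so that all 3 groups were apart. It rose in benzamil over DMSO (0.92 ± 0.27, edgeR adjusted p = 0.0146) and fell in DMSO over untreated (-2.09 ± 0.36, edgeR adjusted p = 0.000231), while its relative Tfap2a had no call in either. The Krüppel-like gene Klf7 was at 18.6, 12.8, 9.65 and 21.7 CPM with benzamil, 106, 141, 61.7 and 73.7 CPM with DMSO, and 26.8 and 14.1 CPM in untreated skin. Klf7 fell in benzamil over DMSO (-2.40 ± 0.38, edgeR adjusted p = 7.9e-05), and had 192 DMSO reads against 3 untreated reads, which is 4.89-fold (counting interval 1.65 to 23.9, edgeR adjusted p = 0.036). Klf13 (-1.42 ± 0.35, edgeR adjusted p = 0.00568) and Klf10 (-1.15 ± 0.39, edgeR adjusted p = 0.0368) also fell in benzamil over DMSO, and Klf3, named after its values were seen, rose in DMSO over untreated (0.99, edgeR adjusted p = 0.0246).

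Of 47 other epidermal transcription regulators 30 were tested. In benzamil over DMSO 1 was higher and 11 lower, where 9.91% and 12.1% of all tested genes were. In DMSO over untreated 6 were higher and 3 lower, where 9.93% and 8.45% were. In benzamil over untreated 3 were higher and 0 lower, where 2.44% and 1.56% were. The median of the regulators in benzamil over DMSO was -0.16 beside -0.01 over all tested genes. Stat3, which carries cytokine signals into the nucleus, was at 170.5, 118, 106 and 108 CPM with benzamil, 449, 410.1, 316 and 425 CPM with DMSO, and 107 and 141 CPM in untreated skin. It fell in benzamil over DMSO (-1.39 ± 0.21, edgeR adjusted p = 5.87e-05) and rose in DMSO over untreated (1.62 ± 0.35, edgeR adjusted p = 0.00235). The basic helix-loop-helix repressor gene Bhlhe40 (-2.60 ± 0.51, edgeR adjusted p = 0.000767), the inhibitor of differentiation gene Id1 (-1.62 ± 0.37, edgeR adjusted p = 0.0025) and the Notch target Hes1 (-1.52 ± 0.33, edgeR adjusted p = 0.00197) fell in benzamil over DMSO as well. Bhlhe40 had only 7 benzamil reads against 101 DMSO reads. The higher call, named after its values were seen, was Rxra, a nuclear receptor gene. In DMSO over untreated the epithelial Ets factor Ehf rose (2.71 ± 0.40, edgeR adjusted p = 4.35e-05), with 429 ± 143 CPM with benzamil, 572 ± 55.8 CPM with DMSO and 81.7 ± 36.1 CPM in untreated skin. The nuclear receptor gene Ppard had 147 DMSO reads and 0 untreated reads, at least 3.74-fold higher if the untreated group is set at its limit of 3 reads (edgeR adjusted p = 0.00213).

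**Figure D5:**
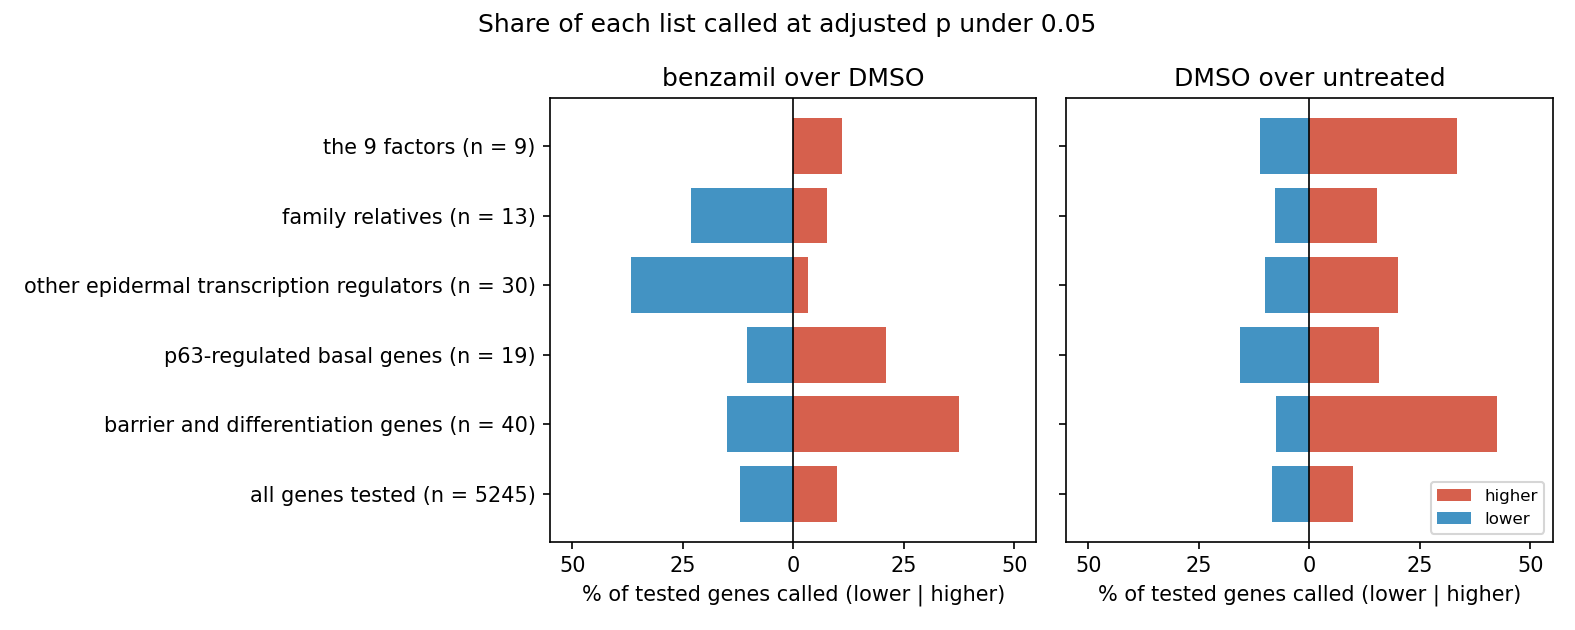
Share of the tested genes of each list called higher (red, right of 0) and lower (blue, left of 0) in benzamil over DMSO and in DMSO over untreated, with all 5245 tested genes as the bottom row. Of the 30 other regulators 11 were called lower in benzamil over DMSO, and of the 40 barrier and differentiation genes 15 and 17 were called higher in the left and right panels.

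Genes known as targets of p63 in basal keratinocytes were called in both directions, as were all tested genes. Of 22 listed, 19 were tested. In benzamil over DMSO 4 were higher and 2 lower, where 9.91% and 12.1% of all tested genes were. In DMSO over untreated 3 were higher and 3 lower, where 9.93% and 8.45% were. In benzamil over untreated 2 were higher and 1 lower, where 2.44% and 1.56% were. Dst, which encodes the hemidesmosome protein BPAG1, was at 1329, 1082, 1365 and 1112 CPM with benzamil, 347, 509.8, 617 and 519 CPM with DMSO, and 2412 and 1954 CPM in untreated skin, the order seen for Gata3. Dst changed by 1.58 ± 0.22 in benzamil over DMSO (edgeR adjusted p = 1.77e-05) and by -2.23 ± 0.26 in DMSO over untreated (edgeR adjusted p = 1.2e-06). Lama3, a laminin chain of the basement membrane, rose in benzamil over DMSO (1.24 ± 0.35, edgeR adjusted p = 0.0132) and the adhesion gene Nectin1 fell (-1.58 ± 0.33, edgeR adjusted p = 0.0012). The P-cadherin gene Cdh3 had 3 benzamil reads against 158 DMSO reads, which is 0.0350-fold (counting interval 0.00715 to 0.104, edgeR adjusted p = 3.59e-05). Krt15, a keratin of basal cells, fell in DMSO over untreated (-3.18 ± 0.33, edgeR adjusted p = 1.5e-07).

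Barrier and differentiation genes, which several of the 9 factors are known to regulate, were all tested. Of 40, 15 were higher and 6 lower in benzamil over DMSO, where 9.91% and 12.1% of all tested genes were. In DMSO over untreated 17 were higher and 3 lower, where 9.93% and 8.45% were. In benzamil over untreated 18 were higher and 0 lower, where 2.44% and 1.56% were. The list medians were 0.38, 0.96 and 1.30 in that order, beside -0.01, 0.18 and 0.17 over all tested genes. The medians of DMSO over untreated and benzamil over untreated did not move when the 3 genes at 0 in untreated skin entered at their lower bound. The filaggrin relative Flg2 (2.81 ± 0.28, edgeR adjusted p = 4.87e-07) and the late cornified envelope gene Lce1m (1.93 ± 0.29, edgeR adjusted p = 5.83e-05) rose in benzamil over DMSO. The keratin Krt77 was also called higher there (1.84 ± 0.54, edgeR adjusted p = 0.0172), although its libraries overlapped. Krt77 was at 144, 144, 43.4 and 0 CPM with benzamil, 27.8, 8.31, 42.4 and 51.0 CPM with DMSO, and 13.4 and 394 CPM in untreated skin. The cross-linking enzyme gene Tgm1, a gene that grainyhead-like factors regulate in mouse epidermis, fell in benzamil over DMSO (-3.14 ± 0.55, edgeR adjusted p = 0.000261). Tgm1 was at 4.73 ± 3.25 CPM with benzamil, 49.4 ± 18.9 CPM with DMSO and 6.70 ± 9.48 CPM in untreated skin, on 5, 111 and 1 reads. Among genes with 0 untreated reads, Sprr1b was at least 50.9-fold and Rptn at least 31.0-fold higher with DMSO. Neutrophil markers (5 of 10 in the tables, led by S100a8 and S100a9, which inflamed keratinocytes also express) summed to 164 to 3879 CPM with benzamil, 11591 to 18809 CPM with DMSO, and 42.2 and 228 CPM in untreated skin. Of the 3 tested, 0 were higher and 3 lower in benzamil over DMSO, where more barrier genes were higher than lower, and 3 were higher and 0 lower in DMSO over untreated. The part of these cells in the values of the barrier and p63 lists was not tested.

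The 2 genes whose pattern over the 10 libraries was nearest to each factor were found by the root mean square difference of log2 CPM after each gene's mean was taken away. For Gata3 they were the kinase gene Wnk1 (0.147) and Bclaf1 (0.156), where the median over all tested genes was 0.784. For Klf5 they were Tmbim6 (0.177) and Dnajc3 (0.188), and for Trp63 Nedd4 (0.155) and the vitamin D receptor gene Vdr (0.195). Grhl3 was nearest to the desmoglein gene Dsg1b (0.300) and to Rbx1 (0.315), at larger distances than for the deeper factors. So was Ovol1, nearest to Snrpc (0.260) and to the short-chain dehydrogenase gene Sdr9c7 (0.282). Grhl3 and Ovol1 also varied more about their own means, with a root mean square of 0.996 and 1.11. The other factors had 0.274 (Klf4) to 0.488 (Tfap2a). Klf4 was nearest to Metap2 and Ubap2l, Grhl1 to Atxn7l3b and Rab2a, Prdm1 to Eif4g1 and Atp6v1e1, and Tfap2a to Nr2c2 and Sra1. The libraries of a group share treatment and depth, and the distances are descriptions without a test.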

How the data were processed

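RNA of 10 mouse skin libraries (500 ng each, a Lexogen 3' mRNA kit with molecular identifiers, a 150-cycle sequencing kit, per the labels' protocols) was processed with STAR, featureCounts and DESeq2 on mm10, per the submitters' processing notes. No source used here states versions, identifier collapsing or strand settings, so intervals and floors cover counting error only. The authors deposited 2 tables of log2 values, named as DESeq2's variance-stabilised values and normalized per table. They also deposited DESeq2 results with a mean signal (counts over size factors), log2 fold changes, a Wald score and p-values, the untreated one coded as untreated over DMSO. A deposited table of counts holds human identifiers and entered no comparison.

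The log2 values were inverted to whole reads (100% whole within 0.01 reads in every library, 39116 of 39116 DMSO values equal between tables), and the 9779 shared genes were joined. Genes found in only 1 table were dropped, 874 with benzamil and 41 with untreated libraries. A 3' library gives reads near a transcript's end, so levels are CPM with no division by length. edgeR 4.0.16 (R 4.3.3) fitted all libraries together with a mean per group, TMM and filterByExpr (at least 10 reads at the typical depth, total of 15), which kept 5245 genes at a common biological coefficient of variation of 0.195. The call threshold was 0.05 for p-values adjusted by Benjamini-Hochberg over all tested genes. The standard error is the absolute log2 fold change over the square root of F and is approximate. The count test was kept although the deposited unit is log2, and limma 3.58.1 on the log2 values is an alternative, as are DESeq2 1.42.0, other scalings, no filter, thinning, separate tables, a replicate block and leaving out each library. Counting intervals are exact binomial at 95%. Coordinates are from GENCODE M21 (mm10).

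Named genes are the 9 factors, and from each list up to 4 called in benzamil over DMSO and up to 2 called in DMSO over untreated by size of change, with the 2 nearest genes of each factor. Marker lists are given mainly by their detected members and summed levels, so not every gene the rule picks from them is printed, and Klf3, Grhl2, Rxra and some markers are named outside it. The factors and lists were chosen with earlier results of these data known.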

Additional observations from a re-analysis of the deposited data

Results flagged for a closer look

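Klf4 in DMSO library 1 was at 913.7 CPM, far above the other DMSO libraries at 526 to 567 CPM. Grhl1 in DMSO library 2 was at 254.9 CPM, above the others at 197 to 202 CPM, and Prdm1 in benzamil library 2 was at 105.3 CPM, above the others at 72.2 to 77.2 CPM. Each stood apart from the rest of its group by Dixon's gap (critical value 0.829 for 4 samples), in 3 of 18 groups examined, where chance flags about 5% of groups.

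The deposited count table with human identifiers, which no comparison used, also holds counts for these factors although all samples are mouse. KLF5 had 7 counts in the benzamil group, 117 in the DMSO group and 0 in the untreated group, and GATA3 had 323 in the benzamil group, 287 in the DMSO group and 46 in the untreated group. Set against the mouse reads of the same library, KLF5 counts amounted to 2.81% ± 3.00 with benzamil and 12.8% ± 0.942 with DMSO (SD, n = 4 each). KLF4 counts amounted to 9.56% ± 5.96 with benzamil and 26.0% ± 1.55 with DMSO, PRDM1 counts to 11.4% ± 7.79 with benzamil and 27.3% ± 5.41 with DMSO, and TP63 counts to 11.5% ± 0.607 with benzamil and 16.9% ± 4.43 with DMSO. GATA3 counts were higher with benzamil, at 44.4% ± 2.68 with benzamil and 34.1% ± 3.36 with DMSO. Each of these 5 had p = 0.0286 in a two-sided exact permutation test, the smallest p that 4 against 4 libraries allow, and 0.0514 after adjustment over the 9 factors. Over all its genes, that table held 43854, 39460, 20448 and 15613 counts in benzamil libraries 1 to 4. DMSO libraries 1 to 4 held 136930, 50655, 35958 and 47170. Set against the joined mouse totals, this whole-table share was itself lower in every benzamil library than in every DMSO library. The lower shares of KLF5, KLF4, PRDM1 and TP63 had the direction of the whole table, for which the test did not adjust. The comparison was chosen after the data were seen. How that table was made is not given in the sources used here.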

How the results depend on the processing

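Of the fits of single factors under other settings, 439 kept their direction and side of the threshold, 23 lost a call, 9 gained one and 15 changed sign, none of them called. With total reads alone benzamil over DMSO gave 248 higher and 1009 lower genes (520 and 635 with TMM), 3 factors lower (Klf5, Grhl3 and Ovol1, none with TMM), and Trp63 at -0.14, Klf4 at -0.020, Prdm1 at -0.13 and Tfap2a at -0.0033, against a median of all genes of -0.26. Benzamil over untreated then gave 63 higher and 105 lower genes (128 and 82 with TMM). Without ribosomal RNA genes, DMSO over untreated gave 422 higher and 541 lower genes (521 and 443 with TMM) with 1 factor higher, and benzamil over untreated 85 higher and 120 lower. The size factors of DESeq2 gave 1 factor lower in benzamil over DMSO. DESeq2's test gave 327 higher genes and 1 factor lower in benzamil over DMSO, and 316 higher genes and 1 factor higher in DMSO over untreated. limma gave 2369 higher genes in DMSO over untreated. With the tables fitted separately, 1 factor was higher there. With no filter, 0 factors were lower there, benzamil over untreated gave 200 higher genes, and Klf4 and Gata3 gave 0.16 and 0.064 in it. Thinning to 71144 reads gave 131 higher and 126 lower genes in benzamil over DMSO, 212 and 211 with 0 factors higher in DMSO over untreated, and 83 higher in benzamil over untreated, among fewer genes (1638) and without Grhl3, Ovol1 and Prdm1. Leaving out 1 library at a time gave 291 to 632 higher and 356 to 799 lower genes with 0 to 1 factors lower in benzamil over DMSO, 225 to 532 higher and 208 to 448 lower with 0 to 3 factors higher and 0 to 1 lower in DMSO over untreated, and 63 to 141 higher and 36 to 92 lower in benzamil over untreated. Over these fits Trp63 ranged from -0.014 to 0.32 in benzamil over DMSO, from -1.02 to 0.16 in DMSO over untreated and from -0.89 to 0.31 in benzamil over untreated, where Klf4 ranged from -0.052 to 0.14 and Gata3 from -0.14 to 0.022. The cause of these shifts was not tested.

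Same-numbered benzamil and DMSO libraries did not deviate together (correlations of 0.0686, 0.000688, 0.0406 and 0.0676), so the numbers were not taken as pairs. A replicate block gave 84 higher genes and Klf4 at 0.033 in benzamil over untreated, and Ovol1 an adjusted p of 0.0523 in DMSO over untreated. limma and separate tables could not be fitted for benzamil over untreated, since no table holds these groups together.

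Depth limits Grhl3, Ovol1 and Prdm1 in untreated skin, with 1, 2 and 6 reads. Where 1 untreated library was left out, the lone library was assumed to vary like the other groups. The other settings were run for the 9 factors and the counts of called genes, and not for single genes of the other lists.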

Other observations

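The ratio of Grhl3 reads to Grhl1 reads was 0.183, 0.205, 0.194 and 0.217 in the benzamil libraries, 0.434, 0.272, 0.196 and 0.197 in the DMSO libraries, and 0 and 0.0833 in the untreated libraries. DMSO libraries 3 and 4 lay within the benzamil range. Gata3 over Trp63 was 2.43, 3.42, 1.96 and 2.28 with benzamil, 1.30, 1.20, 1.79 and 1.93 with DMSO, and 1.40 and 3.00 in untreated skin, with the benzamil libraries above the DMSO libraries. These pairs were chosen after their values were seen and carry no test.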
